A study of Mus musculus with 24 samples.

Results

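The loss of Msh3 was examined on a normal Htt background by comparing the 6 Msh3-/- libraries with the 6 wild-type libraries over every peak of accessible chromatin in the deposited table. These 12 libraries are all those of their genotypes among the 24 libraries of the study, and the table holds 147020 peaks, of which 146155 had enough counts to be tested. ATAC-seq, which reads open DNA from where Tn5 transposase can insert adapters, was applied to NeuN-stained neuronal nuclei sorted from frozen striatum of C57BL/6 mice aged 12 months, with 3 females and 3 males in each genotype. Wild-type animals (WT) carry both normal Htt alleles and Msh3, and Msh3-/- animals (Msh3KO) carry normal Htt and lack Msh3. Het (Q140) KI animals (Q140) carry 1 Htt allele with an expanded CAG repeat and have Msh3. The cross of both alleles (Q140_Msh3KO) served here for a second comparison with and without Msh3, in other animals. No group had been given a drug or other treatment according to the labels. The sources used here do not give the construct of the Msh3 allele or the strain in which it was made.

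Msh3 encodes a mismatch repair protein that works as a subunit of MutSβ, a complex that binds small loops left when the strands of a repeat slip. MutSβ recruits MutL proteins such as Mlh3, Pms1 and Pms2, and in striatal neurons this pathway lengthens expanded CAG repeats as animals age. Msh6 belongs to the related complex MutSα, which recognises single mismatches. The comparison without the expanded allele asks what the absence of Msh3 does to chromatin when there is no long CAG repeat in Htt to act on.

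The promoter of Pgk1 is shown because it was the only peak outside chromosome 13 that differed. It is the RefSeq sequence of build GRCm38.p6, from 250 bases before to 50 bases after the annotated start, written 5′ to 3′ in the direction of transcription, with GC boxes (GGGCGG, or CCGCCC on the other strand) in capitals. It lies at chrX:106186850-106187149 on the plus strand, inside a peak.
Pgk1: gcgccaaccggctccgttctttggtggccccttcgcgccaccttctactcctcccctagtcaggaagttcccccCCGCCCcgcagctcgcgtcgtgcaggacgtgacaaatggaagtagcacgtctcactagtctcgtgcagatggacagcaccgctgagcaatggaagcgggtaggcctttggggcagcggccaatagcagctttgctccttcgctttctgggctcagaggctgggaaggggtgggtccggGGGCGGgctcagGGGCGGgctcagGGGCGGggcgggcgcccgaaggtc
The sequence holds 4 GC boxes, with matches that share bases counted once, and 35.7% of 32851 RefSeq promoters of this length hold at least 1 and 4.65% at least 4. It is 66.7% G or C with 24 CpG dinucleotides, against medians of 52.7% and 7 over all these promoters.

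Counts in peaks were between 5128118 and 9263371 per WT library and between 4372251 and 9868256 per Msh3KO library, and the tested peaks more than 20 Mb from Msh3 had a median of 26.4 counts per library. Promoter peaks took 18.4% to 21.6% of counts in WT and 18.6% to 22.2% in Msh3KO. Levels are given as CPM, counts divided by library size, with the size that edgeR computes by the TMM method, and as the lowest, median and highest animal of each group. The nuclei carried open promoters of striatal projection neuron genes. The promoter of Ppp1r1b, which encodes the dopamine signalling protein DARPP-32, was at 64.7, 81.2 and 107 CPM in WT and at 60.6, 83.6 and 97.8 CPM in Msh3KO. Rbfox3, which encodes the NeuN antigen, was at 14, 16 and 18.7 CPM at its promoter in WT and at 12.6, 14.4 and 16.7 CPM in Msh3KO. The promoter of Mog, an oligodendrocyte gene, was low but not at 0, at 1.14, 1.60 and 3.97 CPM in WT and 1.59, 2.03 and 2.88 CPM in Msh3KO. These promoters are examples and do not measure the purity of the sort. Oligodendrocyte marker genes summed to between 477 and 537 CPM over 88 peaks in WT. Identity genes of striatal projection neurons summed to between 7454 and 9697 CPM over 935 peaks. Each library is a separate animal, and the spread behind the p-values was estimated over all 24 libraries of the study, those with the expanded Htt allele included.

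Between Msh3KO and WT animals 19 of 146155 tested peaks differed, 0.0130% of them, by edgeR's quasi-likelihood test with Benjamini-Hochberg adjustment at 0.05. Of these, 10 rose (0.00684%) and 9 fell (0.00616%) in Msh3KO. On chromosome 13, 18 of them lay within 20 Mb of Msh3, where 2027 peaks were tested and 0.888% were called. Among the 144128 tested peaks beyond that window 1 was called, the promoter of Pgk1 on chromosome X. The other autosomes held 136647 tested peaks with 0 calls, and the rest of chromosome 13 held 4378 with 0 calls. Over all peaks 4871 (3.33%) had an unadjusted p under 0.05, and DESeq2 called 22 peaks. An edgeR fit to only the 12 libraries of WT and Msh3KO called 14 peaks, and 14 of them were among the 19. With libraries scaled by total counts in place of TMM, 7 peaks rose and 10 fell. Without WT F3, WT M1 or WT M2 in turn, 6 peaks rose.

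The peaks near Msh3 were counted apart because DNA beside a targeted allele can come from the strain in which the allele was made. The deposited counts do not show which strain each read came from, so the part of strain differences in these peaks was not tested. Q140_Msh3KO animals have the same Msh3-/- label. Their comparison with Q140 therefore cannot tell DNA that came with the allele apart from loss of Msh3.

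**Figure D1:**
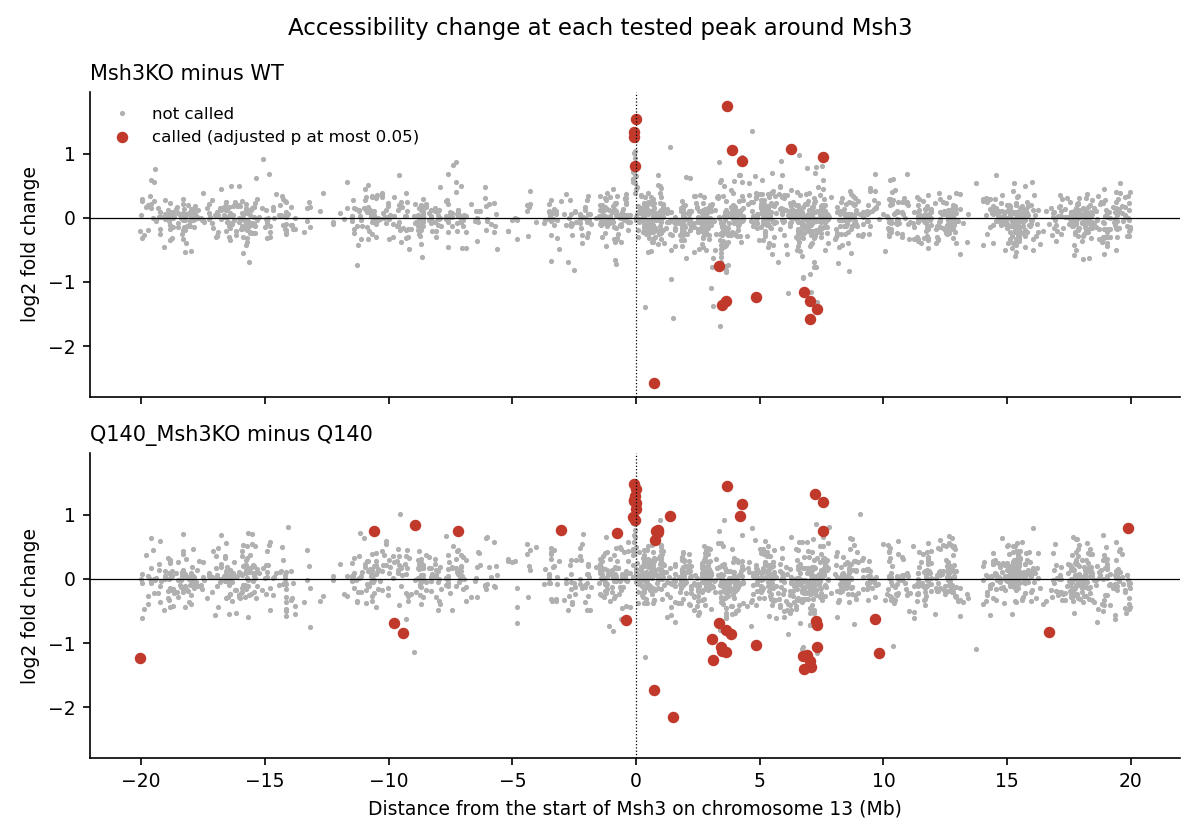
Each point is a tested peak within 20 Mb of the start of Msh3 on chromosome 13, with its distance in Mb on the x axis and its log2 fold change on the y axis. The top panel is Msh3KO minus WT and the bottom panel Q140_Msh3KO minus Q140, and red points passed an adjusted p of 0.05. The 18 called peaks of the top panel lie between -0.0912 and 7.54 Mb.

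Inside the Msh3 gene itself, accessibility was higher in animals without Msh3. Of the 24 tested peaks between the promoter and the far end of the gene, 4 rose and the other 20 had positive log2 fold changes, so the 24 values ran from 0.39 to 1.54 with a median of 0.77. The summed level over these peaks was 50.1, 56.1 and 66.5 CPM in WT (lowest, median and highest animal) and 92.4, 96.0 and 115 CPM in Msh3KO. Every Msh3KO animal lay above every WT animal. In Q140 animals the sum was 57.7, 59.5 and 69.7 CPM, and in Q140_Msh3KO animals it was 89.0, 95.6 and 112 CPM, again without overlap.

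The 4 called peaks were spread along the gene. The peak closest to the promoter overlapped exon 7 (chr13:92344656-92345403). It held 1.58, 2.48 and 3.66 CPM in WT and 6.26, 6.89 and 8.19 CPM in Msh3KO, a log2 fold change of 1.54 ± 0.18 (SE, adjusted p = 9.0e-07). The Msh3KO animals all stood above the WT animals. The peak at exon 17 (chr13:92263596-92263917) held 0.822, 1.54 and 1.78 CPM in WT and 2.85, 3.43 and 4.27 CPM in Msh3KO, and rose by 1.34 ± 0.22 (adjusted p = 0.0023). This is a shallow peak, with 6 to 15 counts per WT library and 16 to 40 per Msh3KO library, and its groups did not overlap. In intron 12 (chr13:92292155-92292731) the values were 1.38, 2.31 and 3.51 CPM in WT and 5.34, 5.87 and 6.94 CPM in Msh3KO, with a rise of 1.26 ± 0.18 (adjusted p = 1.4e-04). The peak in intron 9 (chr13:92311814-92312264) rose by 0.80 ± 0.16 (adjusted p = 0.0407), from 2.57, 3.07 and 3.51 CPM to 4.65, 5.40 and 6.07 CPM. That last call was lost in 17 of the 21 alternative settings, at adjusted p of up to 0.189, while its fold change stayed between 0.77 and 0.85.

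The remaining 20 peaks of the gene body lay in introns and did not pass the test, at log2 fold changes of 0.39 to 1.21. The smallest was in intron 8 (chr13:92315908-92317224), where WT held 6.27, 6.76 and 10.8 CPM and Msh3KO 5.23, 9.26 and 19.7 CPM, and there the groups overlapped. Counted over the gene body, 22 of 24 peaks had an unadjusted p under 0.05, against 3.33% of all tested peaks. In 9 of the 24 the groups did not overlap, against 0.159% of all tested peaks.

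The promoter of Msh3 did not follow the gene body. Its peak (chr13:92354380-92355482) held 54.3, 71.0 and 82.1 CPM in WT and 61.8, 69.1 and 84.1 CPM in Msh3KO. The groups overlapped almost fully, and the log2 fold change was 0.01 ± 0.10 with a 95% interval of -0.20 to 0.22. The higher values of the Msh3 gene body were thus not found at the promoter. ATAC-seq reads neither the transcript nor the protein, so these peaks do not check the genotype, and which part of Msh3 the allele alters is not given in the sources used here.

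**Figure D2:**
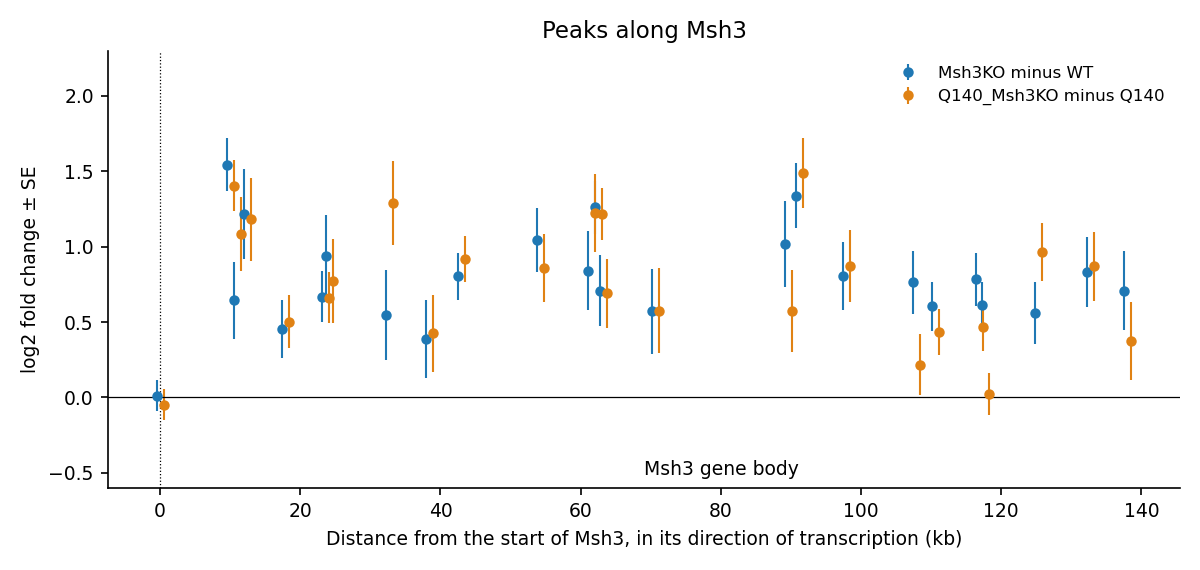
Log2 fold changes with their SE at the tested peaks of Msh3, against the distance in kb from the start of Msh3 in its direction of transcription. Blue points are Msh3KO minus WT and orange points, drawn slightly to the right, are Q140_Msh3KO minus Q140. Points in the Msh3 gene body lie above 0 in both comparisons, and those at the promoter lie around 0.

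Beyond Msh3, 14 called peaks lay on the side of higher coordinates, of which 5 rose and 9 fell. The change of largest size in the data was in intron 5 of Cmya5 (chr13:93075857-93076284), a gene best known from muscle, 2766 bases from the start of the long non-coding RNA gene Gm4814. WT animals held 7.47, 9.22 and 10.7 CPM there and Msh3KO animals 1.15, 1.36 and 2.65 CPM. The peak fell by 2.57 ± 0.18 on the log2 scale (adjusted p = 1.2e-12), and the highest Msh3KO animal was well under the lowest WT animal. The promoter of Gm4814 itself (chr13:93072825-93073323) gave -0.31 ± 0.16 with overlapping groups. Of 13 other tested peaks at Cmya5, 1 had an unadjusted p under 0.05.

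Sv2c, which encodes a synaptic vesicle protein of basal ganglia neurons, held called peaks of opposite direction inside the same intron. In intron 4 the peak at chr13:96010877-96011965 held 22.9, 28.3 and 35.5 CPM in WT and 8.63, 11.7 and 14.3 CPM in Msh3KO, and fell by 1.30 ± 0.12 (adjusted p = 4.2e-09). Only 11.7 kb away, the peak at chr13:96023633-96024453 held 6.71, 7.26 and 9.08 CPM in WT and 15.0, 28.1 and 29.6 CPM in Msh3KO, and rose by 1.74 ± 0.13 (adjusted p = 5.2e-12). At neither peak did the groups overlap, so in Msh3KO the second peak stood above the first while in WT it stood below. A further peak 107620 bases before the start of Sv2c (chr13:96240004-96240391) rose by 1.06 ± 0.20 (adjusted p = 0.0400), from 1.46, 1.70 and 1.97 CPM to 2.85, 3.54 and 4.20 CPM. This call was lost in 15 of 21 alternative settings.

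Iqgap2, which encodes a scaffold protein that binds actin regulators, lost accessibility at 2 called intronic peaks. In intron 1 (chr13:95849526-95850278) WT held 11.9, 14.8 and 15.2 CPM and Msh3KO 4.77, 5.34 and 7.08 CPM, a fall of 1.36 ± 0.15 (adjusted p = 2.1e-07). In intron 11 (chr13:95719344-95720260), 22882 bases from the start of F2rl2, the gene of protease-activated receptor 3, WT held 12.1, 15.2 and 18.9 CPM and Msh3KO 7.94, 8.62 and 11.6 CPM. That peak fell by 0.75 ± 0.12 (adjusted p = 0.0039), and the groups separated at both peaks. A further 45 tested peaks lay in Iqgap2 or had its start as the nearest. Some of them lie inside Sv2c, such as those that start at chr13:95983857 and chr13:95997843, so the 45 do not describe Iqgap2 alone. Of the 45, 17 had an unadjusted p under 0.05, 12 lower and 5 higher in Msh3KO, against 3.33% of all tested peaks. The 45 had log2 fold changes from -1.68 to 0.87 and a median of -0.15.

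The last stretch with calls lay 6.28 to 7.54 Mb from the start of Msh3. A peak near Tmem174, which encodes a transmembrane protein (chr13:98632427-98632726), rose by 1.07 ± 0.21 (adjusted p = 0.0387), from 1.17, 1.56 and 2.49 CPM to 2.73, 3.32 and 4.65 CPM, a call lost in 14 of 20 alternatives. A peak 26860 bases before the start of Zfp366, a zinc finger gene (chr13:99157614-99158312), fell by 1.16 ± 0.16 (adjusted p = 1.4e-04), from 5.21, 6.52 and 8.54 CPM to 2.24, 2.86 and 3.61 CPM. The groups were apart at each of these peaks.

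Mrps27, which encodes a protein of the mitochondrial ribosome, held 2 called peaks in intron 4, and both fell. At chr13:99388834-99389748 WT held 4.78, 7.28 and 10.1 CPM and Msh3KO 1.25, 2.75 and 3.03 CPM, a fall of 1.58 ± 0.19 (adjusted p = 3.7e-06). At chr13:99395570-99396065 WT held 2.37, 3.57 and 5.27 CPM and Msh3KO 0.885, 1.40 and 2.10 CPM, a fall of 1.30 ± 0.23 (adjusted p = 0.0102) that was not called in 7 of 21 alternatives. The groups did not overlap at these peaks. A peak 148570 bases before the start of Map1b, a microtubule-associated protein gene (chr13:99664926-99665418), fell by 1.41 ± 0.21 (adjusted p = 3.5e-04), from 2.93, 4.49 and 4.98 CPM to 0.910, 1.61 and 2.03 CPM. A peak 4208 bases from the start of Cartpt, the gene of the CART neuropeptides (chr13:99896232-99896719), rose by 0.94 ± 0.15 (adjusted p = 8.2e-04), from 3.51, 4.51 and 5.13 CPM to 5.53, 8.87 and 9.45 CPM. It overlaps a SINE element. Msh3KO F2, the library with the fewest counts, was the lowest Msh3KO animal there and still lay above every WT animal.

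**Figure D3:**
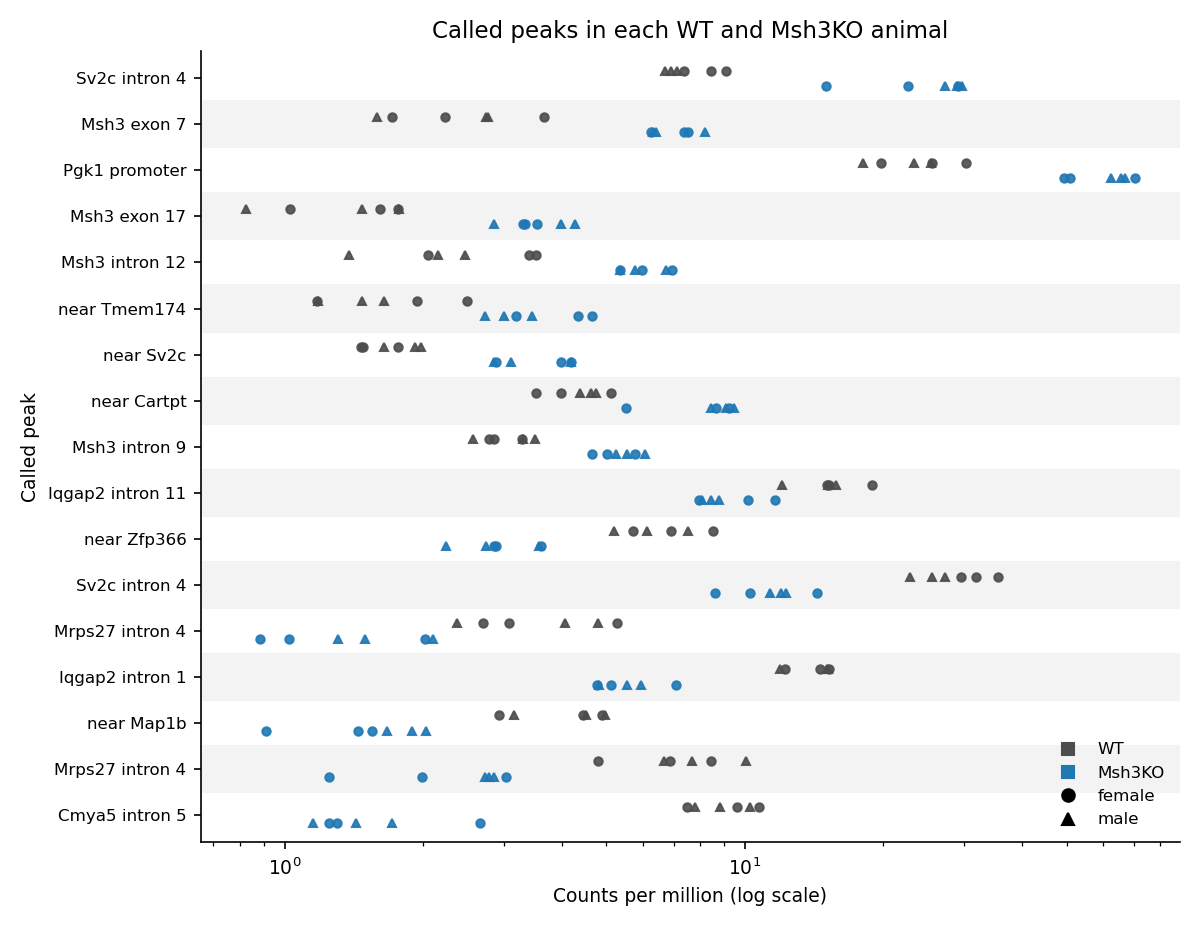
CPM on a log axis at 17 of the 19 called peaks, 1 point per animal, with WT in grey, Msh3KO in blue, circles for females and triangles for males. Peaks are ordered by log2 fold change, from 1.74 in Sv2c at the top to -2.57 in Cmya5 at the bottom, and at none of those drawn do the colours overlap.

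Promoter peaks of these genes on chromosome 13 did not pass the test. At Sv2c the promoter peak (chr13:96131777-96133859) held 29.6, 33.6 and 41.6 CPM in WT and 25.7, 36.8 and 43.8 CPM in Msh3KO, a log2 fold change of 0.05 ± 0.12. The Mrps27 promoter (chr13:99344058-99345055) gave 0.07 ± 0.11. At both promoters the groups overlapped and the test was not passed. F2r, the thrombin receptor gene beside F2rl2, gave 0.32 ± 0.15 at its promoter (unadjusted p = 0.0317, adjusted p = 1 in edgeR). Of the 19 called peaks 10 lay in introns, 2 in exons, 6 between genes and 1 at a promoter, and of the 146155 tested peaks 69022 lay in introns, 6169 in exons, 54229 between genes and 10167 at promoters.

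Along chromosome 13 the called peaks were unevenly spread. The stretches given here differ in width and their edges follow the calls, so the gaps between them describe the calls and test nothing. On the side of lower coordinates 646 tested peaks beyond Msh3 held 0 calls, and 3.72% had an unadjusted p under 0.05. On the other side, 1 of 185 peaks was called from 0 to 2 Mb, 7 of 154 from 3 to 5 Mb and 6 of 183 from 6 to 8 Mb. Within the first of these, the 73 peaks from 1 to 2 Mb held 0 calls. The stretch from 2 to 3 Mb held 0 calls among 94 peaks and the stretch from 5 to 6 Mb 0 among 88, where 14.8% had an unadjusted p under 0.05. From 8 to 20 Mb there were 0 calls among 652 peaks. Between 3 and 5 Mb, where Iqgap2 and Sv2c lie, 26.0% of peaks had an unadjusted p under 0.05.

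The fold changes of the Q140_Msh3KO against Q140 comparison, which uses 12 other animals, varied with those of Msh3KO against WT in some of these stretches. Across peaks, which are not independent of each other, Pearson r was 0.74 from 3 to 5 Mb (n = 154) and 0.66 from 6 to 8 Mb (n = 183), with Spearman's rho of 0.56 and 0.41. From 0 to 2 Mb (n = 185), the stretch of the Cmya5 call, r was 0.58 and rho 0.13. Pearson r was 0.09 from 2 to 3 Mb (n = 94), -0.03 from 5 to 6 Mb (n = 88) and -0.03 from 8 to 20 Mb (n = 652). The stretches follow the calls, the libraries differ in depth and share the peak set, and these values are descriptions. In the whole window 36 peaks had an unadjusted p under 0.001 in both comparisons, and 36 of them had the same sign.

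The single change beyond the window was at Pgk1, the X-linked gene of the glycolytic enzyme phosphoglycerate kinase, whose promoter is also widely used to drive selection genes in targeting constructs. Its promoter peak (chrX:106186569-106187398), which covers the Pgk1 sequence printed above, held 18.1, 24.3 and 30.3 CPM in WT and 49.4, 64.0 and 70.5 CPM in Msh3KO. The peak rose by 1.36 ± 0.12 (adjusted p = 2.5e-10), 2.56-fold, with no overlap between groups. In Q140 animals it held 20.5, 23.6 and 27.8 CPM and in Q140_Msh3KO animals 55.2, 59.0 and 60.4 CPM, a rise of 1.29 ± 0.12 (adjusted p = 9.6e-10). All 12 animals without Msh3 thus stood above all 12 animals with it.

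Other peaks of Pgk1 split into those that followed the promoter and those that did not. At the end of the transcript (chrX:106203586-106204035) WT held 0.679, 1.32 and 1.82 CPM and Msh3KO 2.26, 2.91 and 5.09 CPM, without overlap. The log2 fold change was 1.36 ± 0.28 (unadjusted p = 2.0e-05, adjusted p = 0.125 in edgeR), so the peak was not called, at 6 to 16 counts per WT library and 19 to 31 per Msh3KO library. It was called by DESeq2, without Msh3KO F3, and without Q140 F2 and Q140_Msh3KO M1. In the Q140 comparison the same peak rose by 1.42 ± 0.26 (adjusted p = 0.0036), from 0.347, 1.42 and 2.83 CPM to 3.17, 3.78 and 4.30 CPM. Between these peaks, in intron 3 (chrX:106194504-106194749), WT held 1.36, 1.86 and 2.62 CPM and Msh3KO 1.28, 2.47 and 2.52 CPM, a log2 fold change of 0.16 ± 0.27 with a 95% interval of -0.38 to 0.70. The promoter and the transcript end were thus higher in Msh3KO and the intron between them overlapped between groups.

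Peaks beside Pgk1 did not pass the test. An intergenic peak 15774 bases before its start gave 0.25 ± 0.21, and a peak in intron 1 of Taf9b, the next gene, gave 0.14 ± 0.12 with 12.1, 13.6 and 17.0 CPM in WT and 13, 15.9 and 17.2 CPM in Msh3KO. Near Pgk2, the autosomal relative of Pgk1 used in the testis, 1 peak was tested (chr17:40215197-40215463) and gave -0.09 ± 0.45. Whether reads that map to Pgk1 come from the Pgk1 locus or from the Msh3 allele was not tested.

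**Figure D4:**
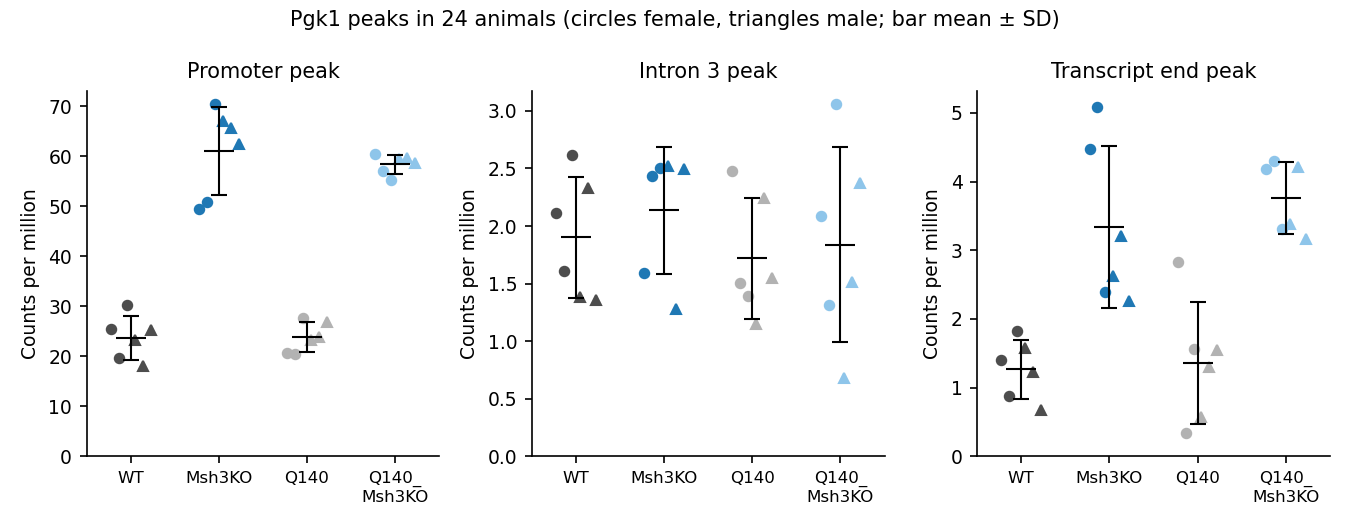
CPM at the promoter, intron 3 and transcript end peaks of Pgk1 in the 24 animals, by genotype, with circles for females, triangles for males and bars for the mean ± SD over 6 animals. At the promoter the animals without Msh3 lie between 49.4 and 70.5 and those with Msh3 between 18.1 and 30.3, while in intron 3 the genotypes overlap.

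Outside the window and Pgk1, the 8 peaks of next smallest p did not pass the test. An intergenic peak with D530049I02Rik as the nearest gene (chr1:73263290-73263931) was at 2.28, 3.72 and 4.25 CPM in WT and 5.01, 5.66 and 6.86 CPM in Msh3KO, a log2 fold change of 0.68 ± 0.16 (adjusted p = 0.401). One near Galc, the gene of a lysosomal galactosylceramidase (chr12:97966816-97967176), gave 1.17 ± 0.28 and one near Zfhx3, a homeobox gene, 0.65 ± 0.16 (adjusted p = 0.424 and 0.478). In the Q140 comparison the peaks near D530049I02Rik and Galc gave -0.30 and -0.68 in the opposite direction, and the peak near Zfhx3 gave -0.06. The other 5 lay near or in Tlk1, Magi2, Camk4, Fdft1 and Msra, at adjusted p of 0.5 to 0.655, and in Magi2, Camk4, Fdft1 and Msra the groups overlapped.

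The precision of the data bounds what these 0 calls cover. Over the 144128 peaks outside the window the median SE was 0.20, and the 95% interval lay within 1 on the log2 scale on either side of 0 for 93.9% of peaks and within 0.5 for 41.3%. Among the tertile of highest counts, 83.9% lay within 0.5, and among the tertile of lowest counts 2.56%. Changes of under 0.5 at most shallow peaks were not detectable at this depth.

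Most of the same peaks also differed between animals with and without Msh3 that carry the expanded Htt allele. In Q140_Msh3KO against Q140, which shares no library with Msh3KO against WT, 773 of 146155 peaks (0.529%) passed the test. That count was 199 without Q140 F2 and Q140_Msh3KO M1, libraries that stood apart in earlier results of these data. At the 19 peaks called without the expanded allele, 19 of 19 had the same direction and an unadjusted p under 0.05, and 16 were called. Of all tested peaks, 9.51% had an unadjusted p under 0.05 in this comparison. The 3 that were not called were the distal Sv2c peak at 0.47 ± 0.19 (adjusted p = 0.352), the Tmem174 peak at 0.65 ± 0.18 (adjusted p = 0.0946) and the shallower Mrps27 peak at -0.71 ± 0.21 (adjusted p = 0.118). At these 3 the Q140 and Q140_Msh3KO groups overlapped, and at the other 16 they did not. The share of all tested peaks without overlap was not computed for this comparison. The median size was 1.30 on the normal background and 1.16 on the Q140 background.

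A test of the difference between the backgrounds called 0 of the 19 peaks. Over all peaks it called 29 (0.0198%), and 9 without Q140 F2 and Q140_Msh3KO M1. At an unadjusted p under 0.05 it counted 2 of the 19, the Cmya5 peak, which gave -2.57 ± 0.18 without the expanded allele and -1.73 ± 0.18 with it (unadjusted p = 0.0033, adjusted p = 0.333 in edgeR), and the distal Sv2c peak (unadjusted p = 0.0406, adjusted p = 0.651 in edgeR). At Cmya5 the Q140 animals held 5.02, 6.34 and 7.63 CPM and the Q140_Msh3KO animals 1.22, 1.92 and 3.13 CPM. In the Msh3 gene body the median of the difference was -0.01 with 0 of 24 peaks called, from medians of 0.77 and 0.81 in the separate comparisons. Of the 52 window peaks called on the Q140 background, 45 had the same direction on the normal background. On that background 35 of the 52 had an unadjusted p under 0.05 and 15 were called.

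Values for the expanded allele alone stand beside these. Q140 against WT, which uses the same WT libraries, gave 0.00 ± 0.12 at the Pgk1 promoter and a median of -0.08 over the Msh3 gene body. In that gene body its values ran from -0.57 to 0.91, and 2 of 24 peaks were called. The value of 0.91 was in intron 19 (chr13:92236747), where loss of Msh3 gave 0.61 on the normal background and 0.02 on the Q140 background. Q140 against WT called 2 of the 19 peaks, Cmya5 at -0.50 (adjusted p = 0.0177) and Cartpt at -0.48 (adjusted p = 0.0473), the latter opposite to the rise of 0.94 in Msh3KO. The WT animals are shared with the Msh3KO comparison, so these values are only set side by side.

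At the 19 called peaks females and males gave the same directions. In a fit with a term for each genotype and sex, 3 animals against 3, 7 peaks were called in females (0.00479%) and 8 in males (0.00547%), all of them among the 19. The male count was 3 to 5 without Msh3KO M1 or M2 or any 1 of the 3 WT males. All 19 peaks had the same sign in both sexes. The 19 were chosen in a fit to these same animals, so shared signs were likely beforehand and are not a separate test. The same holds for calls by sex that fall among the 19. At the Pgk1 promoter the log2 fold change was 1.18 in females and 1.55 in males, and at Cmya5 it was -2.52 and -2.63. The test of the difference between sexes called 0 of 146155 peaks, with 7101 (4.86%) at an unadjusted p under 0.05. Of the 19 peaks 1 was at an unadjusted p under 0.05, the Sv2c intron peak that rose, at 1.45 in females and 2.04 in males (unadjusted p = 0.0274, adjusted p = 0.909 in edgeR). Over the Msh3 gene body the median was 0.76 in females and 0.77 in males.

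The other genes of mismatch repair held 0 calls. Over all tested peaks 0.0130% were called, so most gene lists of the sizes given here would hold 0 calls, and that count says little about their genes. The list of 25 mismatch repair genes held 117 tested peaks, of which 4 were called, all of them in Msh3. Without Msh3 the list held 92 peaks, 0 called and 2.17% at an unadjusted p under 0.05, against 3.33% of all peaks, and the median log2 fold change was 0.02 against 0.00 over all peaks. Msh6, a subunit of MutSα, held 22.6, 29.5 and 32.0 CPM at its promoter in WT and 22.6, 28.5 and 35.3 CPM in Msh3KO (log2 fold change 0.04 ± 0.12), and the groups overlapped. Among MutL genes the promoters of Mlh3 and Pms1 gave -0.01 ± 0.15 and 0.12 ± 0.12. Over the promoters of 20 list genes the values ran from -0.29 in Msh4 to 0.25 in Msh5, both genes of meiosis, and 0 passed the test, with 95% intervals that reached from -0.60 to 0.48. The peak of smallest p in the list outside Msh3 was in intron 2 of Msh4 (chr3:153897487-153897809), at -0.47 ± 0.21 (unadjusted p = 0.0330, adjusted p = 1 in edgeR).

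Other repair genes tied to repeat instability and genes of the damage response also held 0 calls, beside 0.0130% of all tested peaks. The instability list, which includes the nuclease gene Fan1, the glycosylase gene Ogg1 and the polymerase gene Polb, held 138 peaks with 3.62% at an unadjusted p under 0.05. The promoter of Fan1 gave 0.02 ± 0.13, that of Ogg1 0.02 ± 0.11 and that of Polb 0.01 ± 0.12. Its peak of smallest p overlapped an exon of Mre11a (-0.83 ± 0.27, adjusted p = 1), with 2.23, 2.56 and 4.74 CPM in WT and 0.961, 1.58 and 3.10 CPM in Msh3KO, where the groups overlapped. The list of p53 targets and damage response genes held 174 peaks with 5.17% at an unadjusted p under 0.05. Its peak of smallest p lay in an intron of Polk, a translesion polymerase gene inside the chromosome 13 window (0.66 ± 0.23, adjusted p = 1). On the Q140 background that Polk peak gave -0.40 ± 0.18 (adjusted p = 0.457 in edgeR), in the opposite direction. The promoter of Cdkn1a, a cell cycle inhibitor and p53 target, gave 0.14 ± 0.13 and that of Sesn1, a stress-response p53 target, 0.29 ± 0.12 (adjusted p = 1).

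Neuronal identity lists also held 0 calls, beside 0.0130% of all tested peaks. The list of striatal projection neuron identity genes held 935 peaks, 0 called and 2.78% at an unadjusted p under 0.05, with a median of -0.04. The promoter of the D1 receptor gene Drd1 gave -0.05 ± 0.11 and that of the D2 receptor gene Drd2 0.28 ± 0.13 (unadjusted p = 0.0375, adjusted p = 1 in edgeR). Drd2 held 6.30, 6.95 and 7.26 CPM in WT and 7.25, 8.35 and 9.66 CPM in Msh3KO, where the groups just overlapped. Medians of the direct and indirect pathway marker lists (dSPN and iSPN) were -0.01 each. Activity-regulated genes had a median of -0.01 and 0 calls, and their peak of smallest p, 52531 bases before Homer1, a postsynaptic scaffold gene inside the window, gave 0.67 ± 0.15 (adjusted p = 0.282) and 0.73 on the Q140 background (adjusted p = 0.0182). Polycomb-target developmental regulators, 359 peaks with 0 calls, had a median of -0.03, and their peak of smallest p lay near Onecut2 at -0.44 (adjusted p = 1). Chromatin silencing genes had 0 calls in 165 peaks, with 3.03% at an unadjusted p under 0.05 against 3.33% of all peaks. Interferon and innate immune genes had 0 calls in 48 peaks, with 4.17% at an unadjusted p under 0.05. Their peak of smallest p, near the receptor gene Tlr3, gave -0.92 (adjusted p = 1).

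Marker lists of other cells that a NeuN sort could let through were set beside these results. Summed levels overlapped between the genotypes in each list. Astrocyte markers summed to between 730 and 857 CPM in WT and between 674 and 807 CPM in Msh3KO, and oligodendrocyte markers to between 477 and 537 CPM and between 470 and 535 CPM. Microglia markers summed to between 155 and 184 CPM in WT and between 172 and 183 CPM in Msh3KO. This list held 1 call, inside the chromosome 13 window, and 11 of its 13 genes had tested peaks. Oligodendrocyte precursor, endothelial and pericyte, cortical glutamatergic and striatal interneuron markers held 0 calls, with medians between -0.03 and 0.05. The share called over all tested peaks was 0.0130%. Their peaks of smallest p lay at Olig2, Slco1a4, Tle4 and Sst, those of astrocytes and oligodendrocytes at Slc1a2 and Mbp, and those of dSPN, iSPN and identity genes at Eya1, Grik3 and Foxp1, each at an adjusted p of 1. Shares at an unadjusted p under 0.05 ran from 0% in oligodendrocyte precursor markers to 8.70% in microglia markers (4 of 46), against 3.33% of all peaks. Striatal interneuron markers had 5.50%, or 6 of 109 peaks, and 6 of these were higher in Msh3KO.

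**Figure D5:**
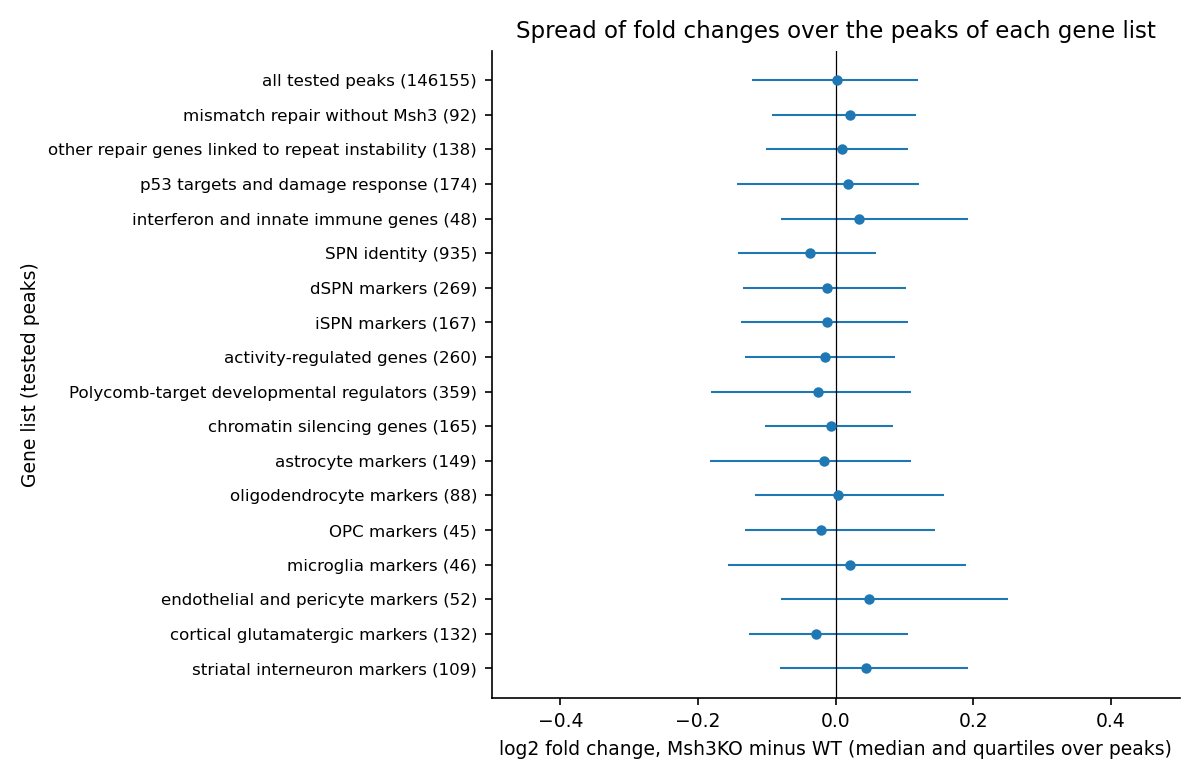
Median and quartiles of the log2 fold change, Msh3KO minus WT, over the tested peaks of each gene list, mismatch repair without Msh3, with the number of peaks in brackets and all tested peaks at the top. The medians lie between -0.04 and 0.05, beside 0.00 for all peaks.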

How the data were processed

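ATAC-seq libraries of sorted striatal nuclei from 24 mice, 6 per genotype, were analysed as the raw counts per peak that the authors deposited in 1 table, whose other columns give each peak's position and gene annotation. BWA, SAMtools, Picard, MACS2, featureCounts and the build GRCm38 are named in the submitters' processing notes, and the sources used here do not give their versions or order. Counts were taken as deposited, with 0 sample columns of unknown origin.

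Peaks were filtered with filterByExpr at a count minimum of 10, scaled by TMM and fitted with edgeR 4.0.16 (robust quasi-likelihood, R 4.3.3) over all 24 libraries with terms for genotype and sex, so the genotypes share 1 estimate of spread. Contrasts were tested two-sided with Benjamini-Hochberg adjustment over 146155 peaks at 0.05. Tables were made with Python 3.11.15 and pandas 2.3.3. Alternatives were DESeq2 1.42.0, limma 3.58.1 (voom), other filters, scalings and sample sets, and a replicate block. The fit was tested on simulated data. A peak is named by the gene whose transcript it lies in, otherwise by the nearest start, and coordinates are 1-based.

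Peaks named are all called peaks, the tested peaks of Msh3 and of its promoter, the 10 of smallest p more than 20 Mb from Msh3, the smallest-p peak of each of 17 gene lists, and other peaks of genes that hold a call. Results at some of these genes are not reported here. Members and lists were chosen with earlier results of these data known.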

Additional observations from a re-analysis of the deposited data

Results flagged for a closer look

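At 4 of 98 groups of 6 animals examined, 1 animal stood far from the other 5 by Dixon's criterion, and chance alone gives about 1 in 20, or 4.9 groups. The Cmya5 intron peak that fell (chr13:93075857) was highest among Msh3KO animals in Msh3KO F2, at 2.655 CPM against 1.155 to 1.709 CPM in the others. At the Cartpt peak that rose (chr13:99896232) Msh3KO F2 was lowest, at 5.531 CPM against 8.444 to 9.449 CPM. At an intron 17 peak of Msh3 (chr13:92256961) Msh3KO F2 was highest, at 4.646 CPM against 2.73 to 3.359 CPM. At the intron 8 peak of Msh3 (chr13:92315908) WT M2 was highest, at 10.82 CPM against 6.265 to 6.802 CPM.

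The difference between animals without and with Msh3 was itself different between the Htt backgrounds, by edgeR's test of the difference with Benjamini-Hochberg adjustment, at peaks outside the 19, of which the 6 of smallest adjusted p follow. In an intron of Tfap2a, a developmental transcription factor gene (chr13:40722641), the difference was -1.386 on the log2 scale, from -0.19 without the expanded allele and -1.58 with it. At the promoter of Onecut1, a homeobox gene, it was -1.634, from 0.22 and -1.42. Near Hoxc8, another homeobox gene, it was -1.468, from 0.06 and -1.41. In Pphln1 it was 1.324, from 0.04 and 1.37, and 90298 bases from the start of Nup35, a nuclear pore gene, 1.385, from -0.17 and 1.21. In intron 1 of Lmcd1 it was -1.479, from 0.75 and -0.73.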

How the results depend on the processing

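Among 21 alternatives, 20 of them planned and 1 chosen after seeing the data, the number of called peaks stayed between 14 and 22, and 14 of the 19 peaks kept their call in each alternative in which they were tested. The other 5 kept their direction, and 0 peaks reversed. The count of rising peaks was 6 with limma-voom and 6 with only the 12 libraries of both genotypes, and 6 to 9 without 1 replicate. The count beyond 20 Mb was 2 with DESeq2, 2 without Q140 F2 and Q140_Msh3KO M1, and 1 to 2 without 1 replicate. The difference between backgrounds called 99 peaks with DESeq2, 152 at a count minimum of 30, 14 with limma-voom, 48 with no filter, 61 with total counts, 9 without Q140 F2 and Q140_Msh3KO M1, and 8 to 144 without 1 replicate. The cause was not tested. By sex, alternatives chosen after seeing the data gave 3 to 8 calls in males and 0 to 1 for the difference between sexes without 1 replicate. With a replicate block 18 peaks were called, 17 of them among the 19, and the difference between backgrounds called 55. On the Q140 background the block gave 915 calls. It was not used otherwise, because same-numbered libraries correlated at only 0.0408 to 0.448. Yet 12 of 12 libraries correlated best with their own number among the 3 same-sex libraries of the other genotype. Part of the spread thus follows these numbers, and the main fit does not model it. Depth limits the shallow peaks: at a count minimum of 30, a Msh3 exon 17 call, the Tmem174 call and the Pgk1 intron 3 and transcript end peaks were not tested.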

Other observations

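Just beyond the threshold lay 3 more peaks of the same stretch of chromosome 13, near Map1b (chr13:99549585) at -0.76 (adjusted p = 0.0523 in edgeR), near 6430562O15Rik (chr13:99419020) at -1.15 (adjusted p = 0.0577 in edgeR) and in intron 10 of Msh3 (chr13:92300600) at 1.04 (adjusted p = 0.0735 in edgeR). The called peaks nearest to the threshold were the distal Sv2c peak (0.0400) and the Msh3 intron 9 peak (0.0407). More than 20 Mb from Msh3, 35 peaks had an unadjusted p under 0.01 in both comparisons of Msh3 loss, which share no library. Of these, 11 had the same sign and 24 the opposite sign. Within 20 Mb 56 peaks met the same rule, and 55 had the same sign.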
